A study of Mus musculus with 4 samples.

Results

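Genes that mark cells of the liver other than hepatocytes were followed through maps of N6-methyladenosine (m6A) in mouse liver RNA. They were Lyz2, Mrc1 and Clec4f for macrophages, Stab2 and Kdr for endothelial cells, Col1a1, Dcn and Ecm1 for stellate cells and fibroblasts, and Spp1 and Muc1 for bile duct cells. The members were picked by name, and every peak that the deposited lists assign to these symbols was taken. Of the 10 genes, 9 had a peak, out of 9650 genes with a peak in either list, and Stab2 had none. The symbols were chosen with earlier results of these data known, and most of those with a peak had been seen in a single list, so the number of such genes among them is a description only.

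The maps came from methylated RNA immunoprecipitation sequencing, in which RNA is broken into fragments of about 100 nt, fragments that carry m6A are captured with an antibody (IP), and they are sequenced beside the unselected input. Peaks are transcript stretches where IP reads exceed what the input predicts. The FF list came from Alkbh5flox/flox mice, which carry loxP-flanked Alkbh5 alleles, and the HKO list from mice labelled Alkbh5-HKO. All mice were 9 weeks old and fed normal chow, each genotype was 1 pool of liver RNA from 3 mice, and each list rests on 1 IP and 1 input library. The Cre driver, the cells in which Alkbh5 was deleted and the meaning of the letter H are not given in the sources used here. Alkbh5 itself carried 3 peaks in FF and 0 in HKO, which is no measure of its RNA level. With 1 pool per genotype there is no replicate and no test between genotypes, and values from the FF and HKO lists are set side by side only.

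ALKBH5 is a demethylase that removes m6A from RNA. In messenger RNA the mark is typically placed in internal exons and around the stop codon, and reader proteins that bind it affect splicing, export, translation and decay. Liver RNA is dominated by hepatocytes. Kupffer cells, the resident macrophages, and the endothelium line the sinusoids, stellate cells lie between endothelium and hepatocytes and store vitamin A, and cholangiocytes line the bile ducts. In RNA from whole liver, fewer cells of a type and less RNA per cell cannot be told apart. A peak also does not show which cell its RNA came from, so the cell types named here are those for which the genes are known as markers.

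The 9 genes carried 10 FF peaks and 10 HKO peaks. Clec4f and Kdr had peaks in both lists, which was also the case for 75.6% of all genes with a peak. Lyz2, Ecm1 and Muc1 had peaks in the FF list alone, a status shared by 11.2% of all genes. Mrc1, Col1a1, Dcn and Spp1 had peaks in the HKO list alone, as did 13.2% of all genes. A peak counted as shared where its exon blocks met those of a same-strand peak of the other list in 1 bp or more. By this measure 4 of the 10 FF peaks and 4 of the 10 HKO peaks were shared, against 74.8% of all FF peaks and 71.5% of all HKO peaks. All of the shared member peaks lay on Clec4f and Kdr. Most members with a peak were picked with their single-list status known, and their peaks have none of the same gene to meet in the other list. The low share of shared member peaks is therefore a description only.

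**Figure D1:**
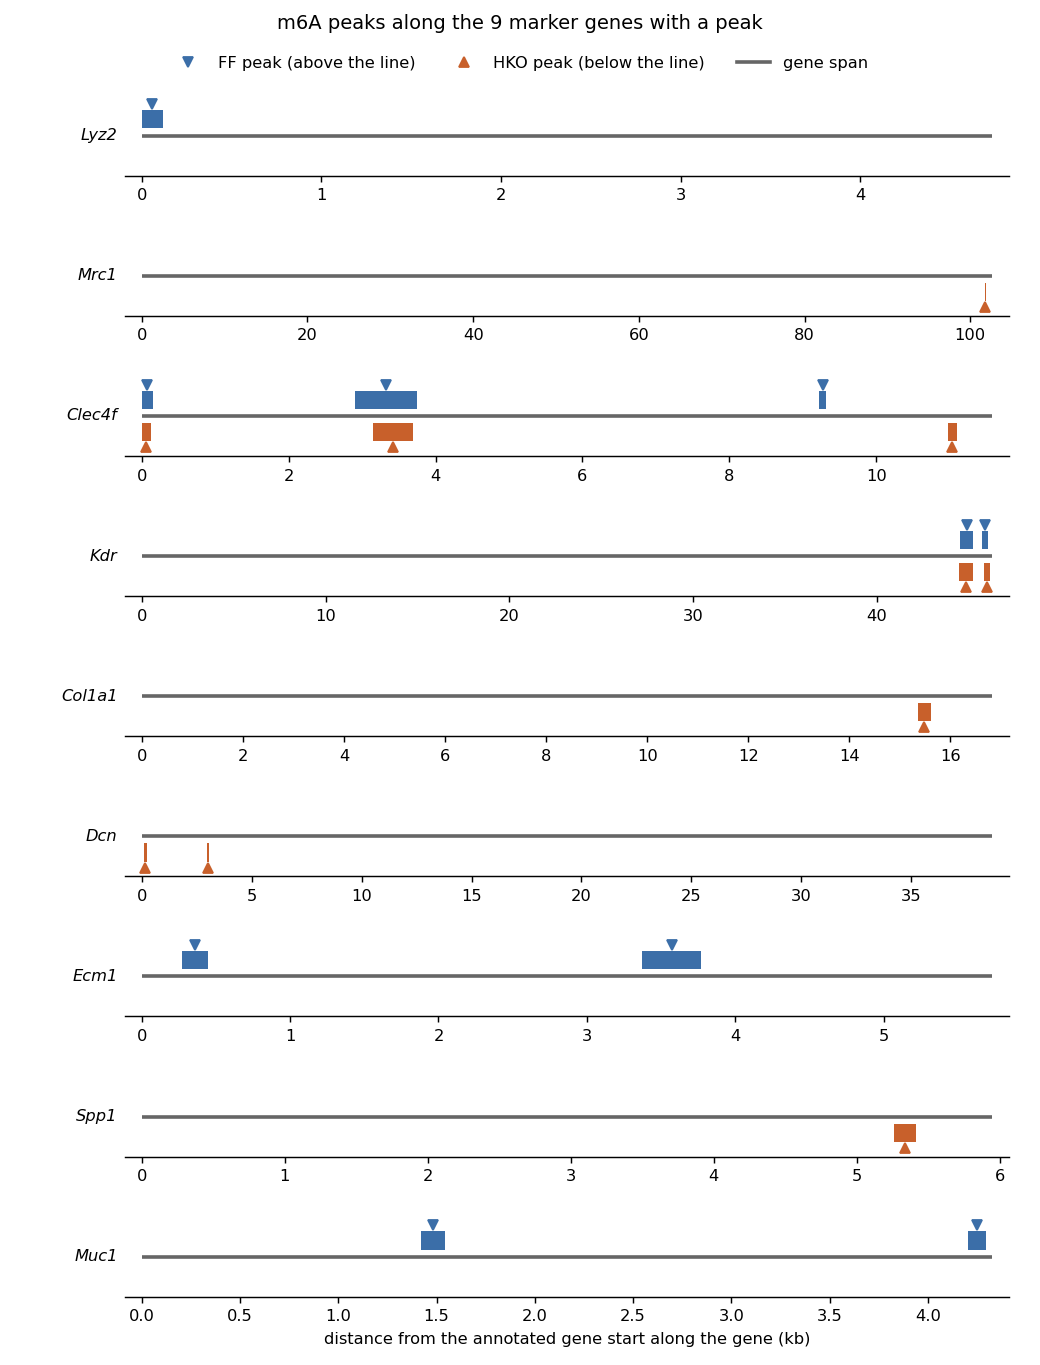
Position of each m6A peak along the 9 marker genes that had one, with distance from the annotated gene start in kb on the horizontal axis and a separate scale for each gene. FF peaks are boxes above the grey gene span and HKO peaks boxes below it, drawn to scale with introns included, and a triangle marks each box. Peaks of the lists face each other on Clec4f and Kdr and on no other gene.

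Of Lyz2, Mrc1 and Clec4f, Clec4f had the most peaks. It encodes a C-type lectin receptor found on Kupffer cells and lies on the minus strand of chromosome 6 (83644542 to 83656116, GRCm38.p6). In the FF list its internal peak ran from 83652369 to 83653208, spanned 840 bp and had a fold of IP over input of 20.5. In the HKO list the corresponding peak ran from 83652429 to 83652968, spanned 540 bp and had a fold of 15.1. The HKO peak lay wholly within the FF peak. In both lists the log10 q of this peak stood at minus infinity, a q too small for the files to hold. By size of p, this peak ranked 58 of 14057 among FF peaks and 130 of 14693 among HKO peaks. It was the strongest peak of any of the 10 genes in both lists by p, though Kdr had the larger fold in each.

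Clec4f also had a peak that began at the first base of the gene in both lists. In the FF list it covered 151 bp with a fold of 5.68 (log10 q -13.3). In the HKO list it covered 121 bp, all of them inside the FF peak, with a fold of 2.58 (log10 q -3.65). Each list also had a peak towards the other end of the gene, and these were separate peaks that did not overlap. The FF peak at 83646800 to 83646890 had the smallest fold of all 20 member peaks, 1.57, and a log10 q of -2.75. The HKO peak spanned 83645022 to 83645142 with a fold of 3.74 (log10 q -12.6). It lay 540 bp from the gene end and 1657 bp away from the FF peak.

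Lyz2 encodes lysozyme of macrophages and neutrophils and lies on the minus strand of chromosome 10 (117277541 to 117282272). Its FF peak, at 117282155 to 117282272, covered the first 118 bp of the gene with a fold of 15.0 (log10 q -16.6). This fold stood at percentile 75.6 of all FF peaks, while the length stood at percentile 6.71. The HKO list held no peak on Lyz2. Lyz1, a close copy of Lyz2 beside it on the chromosome, had no peak in either list, and reads of the pair may be shared, so the Lyz2 peak is uncertain.

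The start regions of Lyz2 and Clec4f are shown because the peaks there end exactly at the annotated first base. Each sequence runs 5′ to 3′ on the coding strand, from 120 bp before the start to 30 bp from the start on, as listed by RefSeq for GRCm38.p6, and capitals mark the bases inside the FF peak. The Clec4f window is chr6:83656087-83656236 and the Lyz2 window chr10:117282243-117282392, both on the minus strand.
Lyz2: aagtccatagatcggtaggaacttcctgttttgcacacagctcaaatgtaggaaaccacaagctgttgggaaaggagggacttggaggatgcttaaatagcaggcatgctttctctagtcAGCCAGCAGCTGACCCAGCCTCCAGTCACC
Clec4f: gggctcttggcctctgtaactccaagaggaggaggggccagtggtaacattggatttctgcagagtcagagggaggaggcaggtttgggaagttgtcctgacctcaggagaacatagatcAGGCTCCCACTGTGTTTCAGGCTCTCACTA
The transcripts of both genes were listed as starting with A, as were 34.4% of 32851 RefSeq start windows. As background, antibodies to m6A also bind m6Am, a related mark found next to the cap of transcripts that start with A, and which mark these peaks hold was not tested. The letters GGAC, a frequent core of the m6A consensus, occurred 1 time in the first 50 bases of Clec4f and 0 times in those of Lyz2, and on the opposite strand 0 times in either. Of all start windows, 18.9% held GGAC in their first 50 bases and 17.4% held it on the opposite strand. Other forms of the consensus were not counted, so a count of 0 for GGAC does not show that Lyz2 lacks a site. Peaks whose edge was the first base of the gene made up 5.27% of FF peaks and 2.43% of HKO peaks. Of the 10 members, 8 had an entry in the RefSeq start table, the others being Col1a1 and Dcn.

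Mrc1 encodes the mannose receptor of macrophages, which liver endothelial cells also carry. Its only peak, in the HKO list, lay at 14331157 to 14331276 on the plus strand of chromosome 2, 807 bp from the end of a gene of 102610 bp. It covered 120 bp with a fold of 5.23 (log10 q -4.16). The fold stood at percentile 26.2 of the HKO list, so the peak was among the weaker ones there.

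Of 24 macrophage markers, 17 had a peak and 15 of these had one in each list (88.2%, against 75.6% of all genes with a peak). The exceptions, Lyz2 and Mrc1, are members, which were picked with earlier results of these data known. Fcgr1, a high-affinity receptor for immunoglobulin G, reached a fold of 38.8 in the FF list against 96.3 in HKO. Cd14, a co-receptor for bacterial lipopolysaccharide, had 46.2 and 16.7, and Cd163, the scavenger receptor for haemoglobin, had 14.9 and 24.6. Adgre1, Ccr2, Cd68, Cx3cr1, Itgam, Timd4 and Vsig4 had no peak. Csf1r, the receptor for the macrophage growth factor, had 1 peak in each list, and these did not overlap.

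Kdr was the endothelial member with peaks. It encodes the main receptor for vascular endothelial growth factor on endothelial cells and lies on the minus strand of chromosome 5 (75932827 to 75979072). In the FF list its stronger peak ran from 75933844 to 75934532 with a fold of 47.0 (log10 q -134). In the HKO list it ran from 75933844 to 75934592 with a fold of 21.7 (log10 q -121). These were the largest folds of any of the 10 genes, at percentile 97.8 of the FF list and 81.6 of the HKO list. The peaks began at the same base and shared 689 bp, the whole of the FF peak.

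The second Kdr peak lay closer to the gene end, centred 344 bp from it in FF and 269 bp from it in HKO. The FF peak, at 75933007 to 75933336, had a fold of 2.54 (log10 q -4.94). The HKO peak, at 75932917 to 75933276, had a fold of 8.74 (log10 q -15.8), and the pair shared 270 bp. On Kdr the FF fold was thus the larger at one peak and the HKO fold at the other. No other peak lay on the gene in either list.

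Stab2, the hyaluronan scavenger receptor of sinusoidal endothelium, had no peak in either list, and neither did its relative Stab1. A transcript with too few reads or with no m6A would give this result alike, and the lists hold no read totals to separate these. Stab2 is the longest of the 10 genes, spanning 166845 bp on chromosome 10. Of 29 endothelial markers, 22 had a peak, all 22 in both lists, against 75.6% of all genes with a peak. On some of these genes no peak overlapped one of the other list. With only peaks of q up to 1e-05, 15 were in both lists and 2 in FF alone. Ptprb, a receptor phosphatase of endothelium, had a largest fold of 53.4 in FF and 101 in HKO. Wnt2, a signal from sinusoidal endothelium to hepatocytes, had 36.0 and 29.7, and Dnase1l3, a secreted nuclease, had 29.0 and 30.5.

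**Figure D2:**
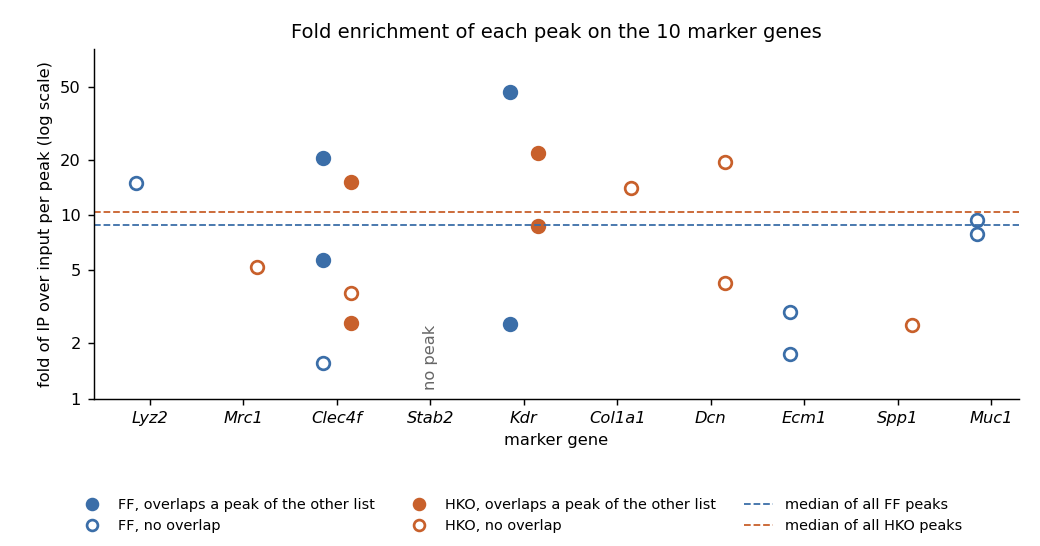
Fold of IP over input for each peak on the 10 marker genes, on a log scale, with FF peaks in blue and HKO peaks in orange. Filled points overlap a peak of the other list, open points do not, and dashed lines give the median of all peaks in each list (8.80 in FF and 10.4 in HKO). The member peaks run from 1.57 on Clec4f to 47.0 on Kdr, both in the FF list, and Stab2 has none.

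The 3 stellate and fibroblast members each had peaks in a single list. Col1a1, which encodes the alpha-1 chain of type I collagen, had 1 HKO peak at 94951575 to 94951844 on the plus strand of chromosome 11. The peak covered 270 bp, was centred 1333 bp from the gene end, and had a fold of 14.0 (log10 q -6.58). Col1a2, the gene for the other chain of type I collagen, had 1 peak in each list. Its peaks began at the same base, 4540529 on chromosome 6, and covered 359 bp in FF (fold 11.8, log10 q -54.5) and 388 bp in HKO (fold 13.9, log10 q -52.6). The genes for the chains of type I collagen thus differed in status, with Col1a2 in both lists and Col1a1 in HKO alone.

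Dcn encodes decorin, a small proteoglycan that binds collagen, and lies on the plus strand of chromosome 10 (97479500 to 97518163). Both of its peaks were in the HKO list. The peak at 97479589 to 97479737 was centred 163 bp from the gene start, with a fold of 4.24 (log10 q -3.43). The peak spanning 97482456 to 97482545 reached a fold of 19.5 (log10 q -4.20), and covered 90 bp, among the shortest of the list (percentile 1.49). Peaks of other marker genes in the HKO list had exactly this fold and log10 q, and whether few reads set these values was not tested. Lum, a related proteoglycan gene on the same chromosome, had 1 peak in each list that overlapped, at folds of 6.53 (FF) and 23.8 (HKO).

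Ecm1 encodes a secreted matrix protein that hepatocytes also make, and lies on the minus strand of chromosome 3 (95734147 to 95739876). Both of its peaks were in the FF list and both were weak. The peak at 95739430 to 95739608 was centred 357 bp from the gene start, with a fold of 2.98 (log10 q -5.12), and it ran across a start listed by RefSeq at 95739569, inside the gene. The peak at 95736106 to 95736505 joined 2 exon blocks of 116 bp and 34 bp, with a fold of 1.74 (log10 q -4.31). These folds stood at percentiles 12.2 and 1.73 of the FF list.

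Of 27 stellate and fibroblast markers, 18 had a peak. Of these, 15 had one in each list (83.3%, against 75.6% of all genes with a peak). The exceptions, Col1a1, Dcn and Ecm1, are members, which were picked with earlier results of these data known. Ngfr, the low-affinity nerve growth factor receptor, had a largest fold of 51.7 in FF and 34.8 in HKO, at different peaks. Pdgfra, a receptor for platelet-derived growth factor, had 29.8 and 40.7, and Hand2, a transcription factor of stellate cells, had 29.8 and 82.7. Acta2, Col3a1, Col4a1, Cygb, Gfap, Hgf, Reln, Tagln and Timp1 had no peak.

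The bile duct members lay in opposite lists. Spp1 encodes osteopontin, a secreted phosphoprotein of bile duct cells and of macrophages, and lies on the plus strand of chromosome 5 (104435111 to 104441053). Its only peak was in the HKO list at 104440372 to 104440520, centred 607 bp from the gene end, with a fold of 2.51 (log10 q -6.43). The fold stood at percentile 6.14 of the HKO list.

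Muc1 encodes a mucin of the apical membrane of epithelia and lies on the plus strand of chromosome 3 (89229056 to 89233381). Both of its peaks were in the FF list, called by the authors at a q threshold of 0.05. The peak spanning 89230477 to 89230596 reached a fold of 9.40 (log10 q -1.52), and ranked 13949 of 14057 by p, close to that threshold. The peak at 89233261 to 89233351 was centred 75 bp from the gene end, with a fold of 7.83 (log10 q -2.52), and ranked 12377 by p. Folds near the middle of the list (percentiles 52.7 and 45.3) thus went with p-values among its larger ones.

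Of 21 bile duct markers, 10 had a peak and 6 of them had one in each list (60.0%, against 75.6% of all genes with a peak). Muc1, Krt23 and Aqp1 had theirs only in FF, and Spp1 only in HKO. Of these, Muc1 and Spp1 are members, which were picked with earlier results of these data known, so the share is a description only. With only peaks of q up to 1e-05, 4 bile duct markers were in both lists, 1 in FF alone and 2 in HKO alone. Krt23, a keratin, had a fold of 14.1 (log10 q -2.75), with its peak centred 149 bp from the gene start. Aqp1, a water channel that endothelial cells also carry, had a fold of 8.62 (log10 q -6.09), with its peak centred 210 bp from the start. The transcription factor gene Sox9 had a largest fold of 30.9 in FF and 81.5 in HKO, and Bicc1, which encodes an RNA-binding protein, had 20.4 and 23.8. The defining markers Krt19, Krt7 and Epcam had no peak.

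Of 16 leukocyte markers, Il7r, Ccr7, Itgax and S100a9 had a peak. Over all genes with a peak, 75.6% were in both lists, 11.2% in FF alone and 13.2% in HKO alone, and so few leukocyte genes allow no comparison with these shares. With only peaks of q up to 1e-05, 0 leukocyte markers were in both lists and 1, Ccr7, was in FF alone. Ccr7 and Il7r, receptors of lymphocytes, had peaks in both lists, with largest folds of 22.7 and 17.8 for Ccr7 and 11.7 and 11.9 for Il7r. Itgax, an integrin of dendritic cells, was in the FF list alone with a fold of 15.7 (log10 q -3.17). S100a9, a calcium-binding protein of neutrophils, was in the HKO list alone with a fold of 5.66 (log10 q -2.29). Ptprc, present on all leukocytes, had no peak.

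**Figure D3:**
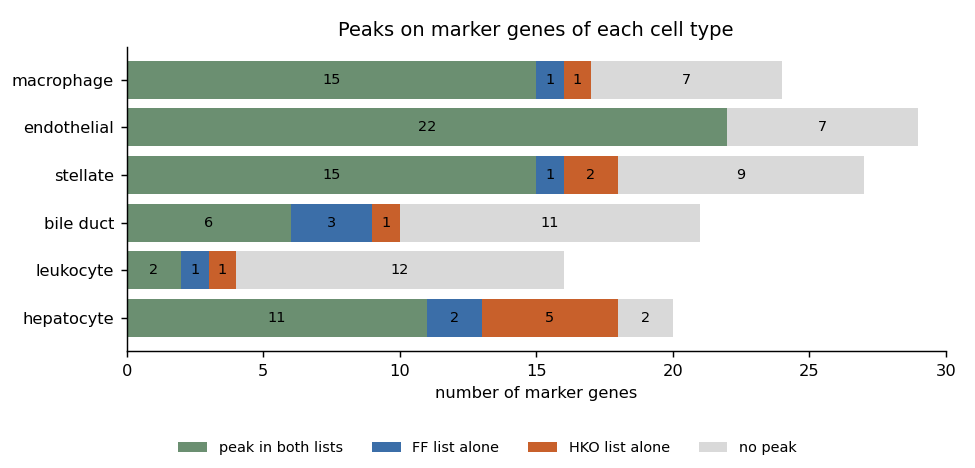
Number of marker genes of each cell type with a peak in both lists (green), in the FF list alone (blue), in the HKO list alone (orange) or in neither (grey). All 22 endothelial markers with a peak had one in both lists, against 75.6% of all genes with a peak. With only peaks of q up to 1e-05, 15 endothelial markers were in both lists and 2 in FF alone. Of 10 bile duct markers with a peak, 4 had one in a single list, among them Muc1 and Spp1, members picked with earlier results of these data known.

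Across the 5 lists of macrophage, endothelial, stellate, bile duct and leukocyte markers, 71 of 117 genes had a peak. The share of all annotated genes with a peak was not computed, so such counts have no baseline here. Of the 71, 60 had peaks in both lists, 6 in the FF list alone and 5 in the HKO list alone. Over all genes with a peak, 75.6% had one in both lists. With the 10 members left out, 58 of 62 had peaks in both lists, 3 in FF alone and 1 in HKO alone. Most members with a peak were picked with their single-list status known, so leaving them out raises the share in both lists by itself. No direction between the genotypes is drawn from these counts. Hepatocyte markers served as a check of the tissue: of 20 symbols, 18 had a peak, among them Alb, Apoa1, Hnf4a and Cps1. Of the 18, 11 had peaks in both lists, Alb and Apoa2 in FF alone, and Ttr, Ass1, Cps1, Cyp2e1 and Hpd in HKO alone. Among hepatocyte genes with peaks in both lists, the transcription factor gene Hnf4a reached 65.0 in FF and 17.2 in HKO. The lipoprotein gene Apob reached 8.89 in FF and 58.3 in HKO, at different peaks.

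**Figure D4:**
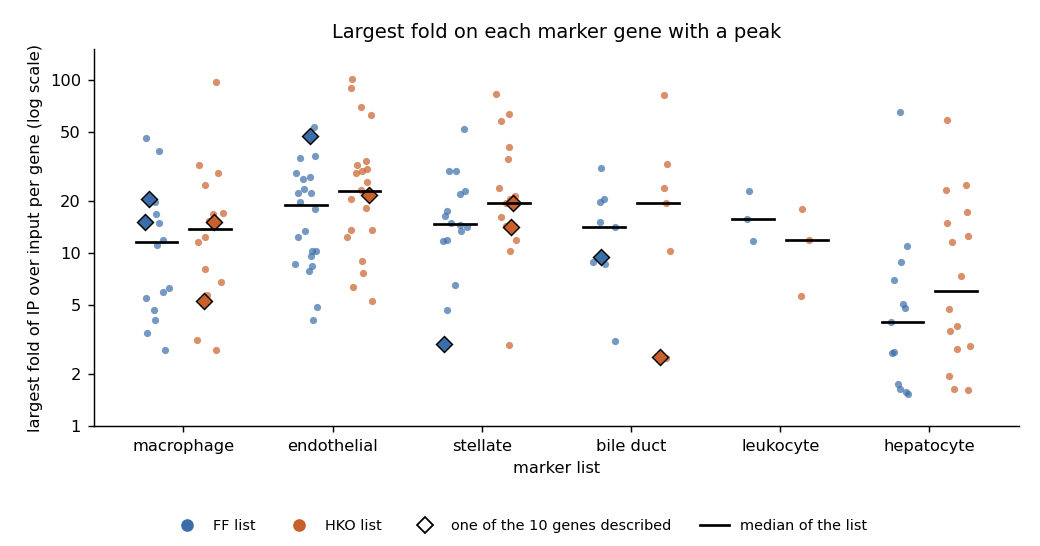
Largest fold of IP over input on each marker gene with a peak, by cell type list, on a log scale, with FF in blue and HKO in orange. Diamonds are the 10 genes described (those with a peak in that list) and black lines are medians. Medians for endothelial markers are 18.8 in FF and 22.9 in HKO, and those for hepatocyte markers are 3.99 and 6.04.

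Taking each gene at its largest fold, the median of all genes was 11.5 for FF and 13.6 for HKO. Endothelial markers stood at 18.8 and 22.9, and stellate markers at 14.7 and 19.5. Macrophage markers stood at 11.5 and 13.7, and bile duct markers at 14.1 and 19.5. Leukocyte markers, with 3 genes in each list, stood at 15.7 and 11.9, the latter below the HKO median of all genes. Hepatocyte markers had the lowest medians of the 6 lists, 3.99 and 6.04. Among the 10 members, Ecm1 in FF (2.98) and both Mrc1 (5.23) and Spp1 (2.51) in HKO had largest folds below the hepatocyte median of their list, and Kdr in FF stood highest with 47.0.

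Peaks of the members were short. Their median exonic length was 150 bp in FF and 149 bp in HKO, against 241 bp and 269 bp over all peaks. The median fold over member peaks was 6.75 in FF and 6.99 in HKO, against 8.80 and 10.4 over all peaks. Most members with a peak were picked with their single-list status known, so these medians are a description only. On non-hepatocyte markers that are not members, peaks without an overlap had median folds of 8.62 in FF and 7.21 in HKO. Those with an overlap had 11.7 and 14.8. The 12 member peaks without an overlap covered 90 to 270 bp of exon and the 8 with an overlap 121 to 840 bp.

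Along the gene, 3 of the 10 FF member peaks (on Lyz2, Clec4f and Ecm1) and 2 of the 10 HKO member peaks (on Clec4f and Dcn) were centred within 500 bp of the gene start. Over all peaks placed on a gene these shares were 15.0% in FF and 7.38% in HKO. Within 1000 bp of the gene end lay 2 FF member peaks (on Kdr and Muc1) and 4 HKO member peaks (on Mrc1, Clec4f, Kdr and Spp1), against 26.6% and 31.0% of all peaks. Of these FF members, Lyz2 and Ecm1 lacked an HKO peak anywhere on the gene. Most members with a peak were picked with their single-list status known, so no link between start peaks and list is drawn. None of the 20 member peaks lay within the span of another RefSeq gene.

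The strength of the single-list peaks differed among the members. With only peaks of q up to 1e-05 kept, Lyz2, Ecm1, Col1a1 and Spp1 kept a peak in their list, and Mrc1, Dcn and Muc1 had none left. With only those of q up to 1e-10 kept, Lyz2 was the only single-list member with a peak, and Clec4f and Kdr still had peaks in both lists. Among single-list members, Lyz2 was therefore the one whose called peak had the smallest q, with Col1a1 and Spp1 next. The q of a called peak does not test the lack of a peak in the other list. The Lyz2 peak also remains uncertain, since reads may be shared with Lyz1. Shares of all genes in a single list at these limits are not given here.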

How the data were processed

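Liver RNA of 2 genotypes was measured as IP and input, 4 libraries in all. Reads were processed with fastp 0.19.11, BWA 0.7.12 and HOMER 4.9.1 on GRCm38.p6, per the submitters' processing notes. Peaks were called by exomePeak 2.16.0 on each pool at a q threshold of 0.05, per the labels' series design text. The authors deposited for each peak a p-value, the log10 of p and of q (a score with no lower bound) and a fold of IP over input. The log10 of the deposited p-value differed from the listed log10 p by at most 0.02. The labels name different antibodies and library kits in different fields, which was not settled here. Read totals are not part of the lists, and the depth behind each peak is unknown. Several peaks of different marker genes had the same fold and log10 q within a list, among them peaks of Mrc1, Dcn and Muc1.

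Peaks were assigned by the deposited symbol and compared with Python 3.11.15, pandas 2.3.3 and numpy 2.4.6, with figures from matplotlib 3.10.9. Positions are counted from base 1, and distances run from the middle exonic base of a peak to the ends of the RefSeq gene span. No span on the same chromosome was found for 9 FF and 6 HKO peaks. Percentiles and ranks are within a list and show no change between lists. The overlap count was also run on copies of the FF peaks that were shifted slightly or taken off their chromosome. This checks the counting only and says nothing about the overlap of the FF and HKO lists. Members and marker lists were chosen with earlier results of these data known. The genes named are all members, the markers with a peak in 1 list, and per list the 3 other markers whose smaller largest fold was highest; Csf1r, Col1a2, Lum, Stab1, Lyz1 and the markers named as lacking a peak were added after their values were seen. Some genes that this rule names are not reported here. Of 137 marker symbols, 136 matched RefSeq, the other being Tf. Exons, coding regions and the sequence of internal peaks were not analysed here.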

Additional observations from a re-analysis of the deposited data

How the results depend on the processing

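Clec4f and Kdr had peaks in both lists under each setting tried. The counts of members in a single list, 3 in FF alone and 4 in HKO alone, did not move when peaks under a fold of 2 were dropped, nor when the longer list was shortened to match the other by p. With only peaks of q up to 1e-05 they became 2 and 2, and with only peaks of q up to 1e-10 they became 1 and 0. Shared member peaks numbered 4 in each list for any overlap of exons, of spans, or of at least 50% of the shorter peak, and 2 in each list with only peaks of q up to 1e-05, since the second shared peak of Clec4f and of Kdr misses that limit in a list. With a window of 500 bp in place of 1000 bp, 1 HKO member peak lay at the gene end in place of 4. Over the 5 non-hepatocyte lists, genes with peaks in both numbered 39 in place of 60 once q was limited to 1e-05. No paired analysis was possible because each genotype had 1 pool. How depth limits the lists could not be read from them, and a gene without a peak may have had too few reads.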
